A study of Mus musculus with 6 samples.

Results

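The Fc receptors for IgE and IgG were followed in RNA sequencing of mouse bone marrow cells selected for c-Kit, with 3 WT libraries and 3 libraries labelled Runx1 KO. The set holds 10 genes chosen by name, Fcer1a, Ms4a2, Fcer1g, Fcgr1, Fcgr2b, Fcgr3, Fcgr4, Fcer2a, Fcrla and Fcgrt, out of 20097 genes listed in the files. Their Ensembl identifiers were matched to symbols, and all 10 were listed and were among the 15410 genes that passed the filter on low values. c-Kit is the stem cell factor receptor, which marks blood progenitors and mast cells and is used here to select the cells. Runx1 encodes a transcription factor of blood formation. The labels give no age, sex or strain, and they do not say how or when Runx1 was disrupted. Nor do they say whether the libraries came from separate animals, so the p-values measure only the spread between these libraries, which may be technical. All values are normalised reads, the reads of a gene divided by a size factor of its library. In RNA from a mixed cell population, fewer cells that express a gene and less RNA per cell cannot be told apart.

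Fc receptors bind the constant part of antibodies and so connect antibodies to the cells that carry the receptor. The high-affinity IgE receptor FcεRI of basophils and mast cells is built from an IgE-binding α chain (Fcer1a), a β chain that amplifies its signal (Ms4a2) and a γ chain with an activating ITAM signalling motif (Fcer1g). The same γ chain also serves the activating IgG receptors FcγRI (Fcgr1), FcγRIII (Fcgr3) and FcγRIV (Fcgr4) of myeloid cells, whereas FcγRIIB (Fcgr2b) carries an inhibitory motif. Fcer2a encodes the low-affinity IgE receptor, found mainly on B cells, Fcrla an intracellular Fc receptor-like protein of B cells, and Fcgrt the heavy chain of FcRn, which protects IgG and albumin from degradation.

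The promoter windows of the 3 FcεRI chains and of Fcgr4 are shown because these genes were lower in the libraries labelled Runx1 KO and because GATA, RUNX and PU.1 factors are described at FcεRI genes. The windows are RefSeq sequences of the build GRCm38.p6, run 5′ to 3′ on the strand of the gene, and reach from 250 bases before the start to 50 bases of the transcript. Capitals mark matches, searched on both strands, to AGATAA or TGATAA as GATA letters, to TGTGGT as RUNX letters and to GAGGAA as PU.1 letters. No 2 matches overlapped in these windows. Fcer1a lies on the minus strand at chr1:173227180-173227479, Ms4a2 on the minus strand at chr19:11623670-11623969, Fcer1g on the minus strand at chr1:171234300-171234599 and Fcgr4 on the plus strand at chr1:171018676-171018975.
Fcer1a: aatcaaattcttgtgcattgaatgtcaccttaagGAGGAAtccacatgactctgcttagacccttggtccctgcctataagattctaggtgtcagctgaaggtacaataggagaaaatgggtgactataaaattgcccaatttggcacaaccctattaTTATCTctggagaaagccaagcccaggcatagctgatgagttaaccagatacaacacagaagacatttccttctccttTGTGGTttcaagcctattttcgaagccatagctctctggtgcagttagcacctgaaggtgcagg
Ms4a2: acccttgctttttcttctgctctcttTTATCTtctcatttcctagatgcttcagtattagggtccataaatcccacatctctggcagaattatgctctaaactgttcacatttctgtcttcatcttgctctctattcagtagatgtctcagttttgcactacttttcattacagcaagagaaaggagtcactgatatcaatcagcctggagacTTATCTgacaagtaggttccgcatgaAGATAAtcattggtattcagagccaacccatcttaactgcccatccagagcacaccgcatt
Fcer1g: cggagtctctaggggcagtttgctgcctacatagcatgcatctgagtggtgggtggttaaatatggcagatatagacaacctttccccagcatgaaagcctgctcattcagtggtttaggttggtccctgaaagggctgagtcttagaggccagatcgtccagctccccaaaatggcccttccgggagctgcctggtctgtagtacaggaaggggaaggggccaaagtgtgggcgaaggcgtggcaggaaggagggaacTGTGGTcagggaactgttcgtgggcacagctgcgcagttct
Fcgr4: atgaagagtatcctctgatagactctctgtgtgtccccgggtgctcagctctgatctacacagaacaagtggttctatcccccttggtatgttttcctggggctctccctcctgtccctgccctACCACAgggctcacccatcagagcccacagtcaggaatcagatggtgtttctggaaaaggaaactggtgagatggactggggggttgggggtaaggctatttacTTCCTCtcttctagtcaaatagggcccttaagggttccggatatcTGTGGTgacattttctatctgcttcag
The Fcer1a window held all 3 kinds of letters: a PU.1 match that begins 216 bases before the start, a GATA match at 92 bases before it on the opposite strand, and a RUNX match at 14 bases before it. The Ms4a2 window held 3 GATA matches, beginning 224, 37 and 11 bases before the start, and no RUNX or PU.1 match. Fcer1g had a RUNX match at base 10 of the transcript. Fcgr4 had a RUNX match 126 bases before the start, a PU.1 match 22 bases before it, both on the opposite strand, and a RUNX match at base 24 of the transcript.

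All 10 genes had at least 1 of the 32851 RefSeq promoter windows, 13 windows in all. GATA letters occurred in windows of 2 of the 10 genes, Fcer1a and Ms4a2, and in 18.6% of all windows. RUNX letters occurred for 4 of the 10 genes, the fourth being Fcer2a, and in 16.8% of all windows. PU.1 letters occurred for 5 of the 10 genes, Fcer1a, Fcgr1, Fcgr3, Fcgr4 and Fcrla, and in 28.3% of all windows. Windows with all 3 kinds made up 0.98% of all windows and included that of Fcer1a, and windows with GATA letters at 3 or more places made up 0.502% and included that of Ms4a2. Both classes follow what these 2 windows held and were not among the shares planned beforehand, so how rare they are tests nothing. The counts above are of genes, some with more than 1 window, and the shares are of windows. These matches describe the letters and are neither binding sites nor causes. The absence of a match says only that these letters are not in that window.

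The 6 libraries held 23297526 to 26793380 recovered reads, and 1 read was worth 0.959 to 1.046 normalised reads. Kit was listed at 7979 to 8471 normalised reads in the WT libraries and at 11507 to 13684 in those labelled Runx1 KO. The gene used to select the cells was thus itself called higher, with a log2 change of 0.60 ± 0.075 (SE, limma adjusted p = 0.00346). The targeted gene did not follow its label. Runx1 was listed at 3031, 2799 and 3497 normalised reads in WT replicates 1 to 3 and at 6648, 6720 and 5830 in Runx1 KO replicates 1 to 3, a rise of 1.04 ± 0.098 (SE) on the log2 scale (limma adjusted p = 0.00163). A gene total cannot show whether the transcript was disrupted, so every direction below is that of the libraries labelled Runx1 KO against those labelled WT. Along the first principal component of all tested genes, which took 69.2% of the variance, the groups separated, and WT replicate 1 and Runx1 KO replicate 1 stood apart from the other libraries of their groups.

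Of the 10 Fc receptor genes, 6 were lower in the libraries labelled Runx1 KO (Fcer1a, Ms4a2, Fcer1g, Fcgr4, Fcer2a and Fcrla), by the limma test at an adjusted p under 0.05. Of all 15410 genes tested, 11.3% were called lower and 10.6% higher. None of the 10 was called higher by the main limma test, edgeR or DESeq2, and 1 of them, Fcgr2b, was higher at an unadjusted limma p under 0.05. The WT and Runx1 KO libraries did not overlap for 7 of the 10 genes, 6 lower and 1 higher. Such separation was seen for 43.3% of all genes tested, with 21.9% separated as lower and 21.4% as higher. All 6 were called with log2 changes of −1 or less, as were 5.02% of all genes tested, and 3 of them, Fcer1a, Fcrla and Fcer2a, with changes of −3 or less, as were 1.2% of all genes tested. The cut-offs of −1 and −3 were not planned beforehand, so these 2 shares are a description and test nothing. The median log2 change over the 10 genes was −1.28, against −0.0042 over all genes tested. The number of genes called lower depended on single libraries, falling from 1739 to 735 of all genes without Runx1 KO replicate 2 and to 908 without Runx1 KO replicate 3, whereas the same 6 Fc receptor genes were called lower without any 1 of the 6 libraries.

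**Figure D1:**
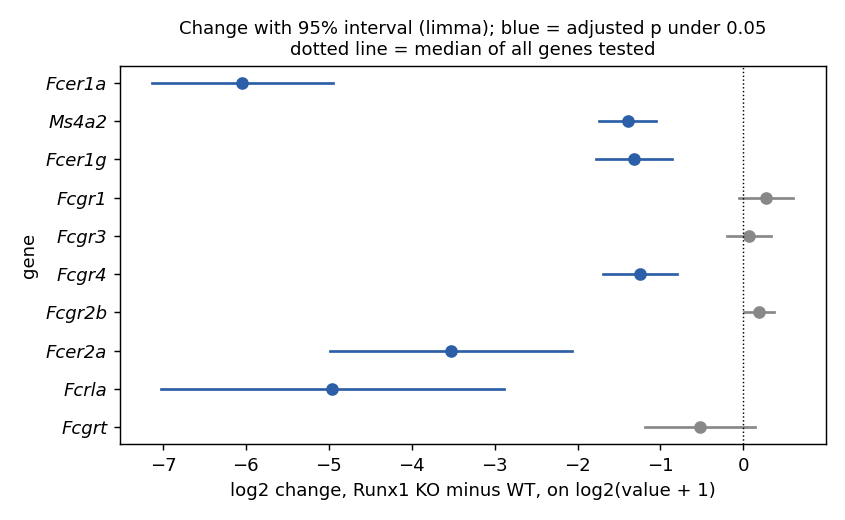
The log2 change of each Fc receptor gene, libraries labelled Runx1 KO minus WT, is plotted with its 95% limma confidence interval, in blue for an adjusted p under 0.05, and a dotted line marks the median of all genes tested (−0.0042). The blue intervals of Fcer1a, Fcrla, Fcer2a, Ms4a2, Fcer1g and Fcgr4 lie below 0, those of Fcgrt, Fcgr3 and Fcgr1 cross it, and that of Fcgr2b (0.01 to 0.37) lies just above it without an adjusted p under 0.05.

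The α chain of the IgE receptor showed the largest change among the 10 genes. Fcer1a (ENSMUSG00000005339, chromosome 1, 173221284 to 173227214, minus strand) was listed at 364, 180 and 213 normalised reads in WT replicates 1 to 3 and at 3.14, 0.991 and 4.97 in Runx1 KO replicates 1 to 3. The lowest WT library thus lay far above the highest library labelled Runx1 KO. In recovered reads these were 768 in the 3 WT libraries and 9 in the 3 labelled Runx1 KO, which is 83.3-fold lower with a 95% exact interval of 43.6 to 183 for counting error only. The limma log2 change was −6.04 ± 0.46 (SE, adjusted p = 0.00102). Since the level in the libraries labelled Runx1 KO was near the value of 3 reads (2.88 to 3.14 normalised reads), the fitted change depended on the pseudocount, with −4.97 at a pseudocount of 5. Fcer1a passed the filter on low values through the WT libraries only.

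The β chain and the γ chain fell less. Ms4a2 (ENSMUSG00000024680, chromosome 19, 11615523 to 11623719, minus strand) was listed at 890, 767 and 1046 normalised reads in WT replicates 1 to 3 and at 379, 348 and 295 in Runx1 KO replicates 1 to 3. All 3 libraries labelled Runx1 KO lay below every WT library, and their spread was small (341 ± 42.1 against 901 ± 140, mean ± SD, n = 3 each). This was 2.64-fold lower, with a log2 change of −1.40 ± 0.14 (SE, limma adjusted p = 0.00225). Fcer1g (ENSMUSG00000058715, chromosome 1, 171229572 to 171234365, minus strand) was listed at 6108, 4903 and 5042 normalised reads in the WT libraries and at 2937, 1819 and 1811 in those labelled Runx1 KO. The groups again did not overlap, and replicate 1 was the highest library of each group. Fcer1g was 2.44-fold lower, with a log2 change of −1.32 ± 0.19 (SE, limma adjusted p = 0.00582).

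The chains were also compared by their ratios within a library, with log2 ratios taken of value + 1. The linear ratio of Ms4a2 to Fcer1g was 0.146, 0.156 and 0.207 in WT replicates 1 to 3 and 0.129, 0.191 and 0.163 in Runx1 KO replicates 1 to 3, so the groups overlapped. The difference of the mean log2 ratio was −0.076 (exact two-sided permutation p = 0.8, and 0.8 after Benjamini-Hochberg adjustment over 6 ratios). The log2 ratio of Fcer1a to Fcer1g was −4.46 ± 0.36 in WT and −9.18 ± 0.83 in the libraries labelled Runx1 KO (mean ± SD, n = 3 each), and the groups did not overlap. That difference of −4.72 had an exact permutation p of 0.1, the smallest that 3 against 3 libraries allow, and an adjusted p of 0.2, and it was −3.65 with a pseudocount of 5. Against Ms4a2, the log2 ratio of Fcer1a differed by −4.65 with the same exact p of 0.1.

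Basophils and mast cells are the cells that carry FcεRI in the mouse, and their marker genes did not move as a set. Of 10 basophil marker genes, 9 were tested, with a median log2 change of 0.33. Of these, 2 were lower by limma at an adjusted p under 0.05, as were 11.3% of all genes tested. Both were granule protease genes. None was called higher by the main limma test, edgeR with TMM or DESeq2, although 2, Hdc and Il4, were higher at an unadjusted limma p under 0.05. Of the 10 alternatives that kept every library, 3 called 1 marker higher, and 2 were called higher without WT replicate 1 or without Runx1 KO replicate 3. Prss34 was listed at 4096, 2069 and 2532 normalised reads in WT. In the libraries labelled Runx1 KO it was listed at 5.23, 3.96 and 1.99 (limma adjusted p = 0.000111), at most 5 recovered reads. Like Fcer1a, it passed the filter on low values through the WT libraries only. Mcpt8 was 1662 ± 198 against 132 ± 10.4 normalised reads (log2 change −3.64, limma adjusted p = 0.000111). The chemokine receptor gene Ccr2, which is also in the monocyte list, was not called, at −0.52. The summed level of the basophil markers ranged from 15888 to 21122 normalised reads in WT and from 12733 to 16757 in the libraries labelled Runx1 KO.

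The mast cell markers could be followed only in part. The list has 10 names, but Mcpt5 is an older name of Cma1, which it also holds. Mcpt4, Tpsab1 and Mrgprb2 were not analysed here, and Tpsb2 did not pass the filter on low values and was listed at 0 in at least 1 library. Among the 5 tested, Il1rl1, a subunit of the interleukin-33 receptor, rose from 613 ± 71.9 to 1379 ± 319 normalised reads (log2 change 1.15, limma adjusted p = 0.00618). Slc18a2, a vesicular transporter for monoamines, also rose, by a log2 change of 0.66 (limma adjusted p = 0.0212), a call lost without WT replicate 1 or Runx1 KO replicate 2 or 3. The chymase gene Cma1 fell by 2.48 (limma adjusted p = 0.0223), a call that was lost without WT replicate 2 or 3 or Runx1 KO replicate 2. Cma1 had at most 9 recovered reads in any library labelled Runx1 KO and passed the filter through the WT libraries only. Cpa3 and Hdc, which are in both marker lists, were not called, with log2 changes of 0.40 (95% interval −0.08 to 0.88) and 0.31 (0.04 to 0.59). The summed level was 9037 to 10593 normalised reads in WT and 11807 to 13782 in the libraries labelled Runx1 KO. Most of this sum was Hdc in every library, at a mean of 6503 in WT and 8021 in the libraries labelled Runx1 KO. The part of these cell types in the values of the IgE receptor chains was not tested.

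**Figure D2:**
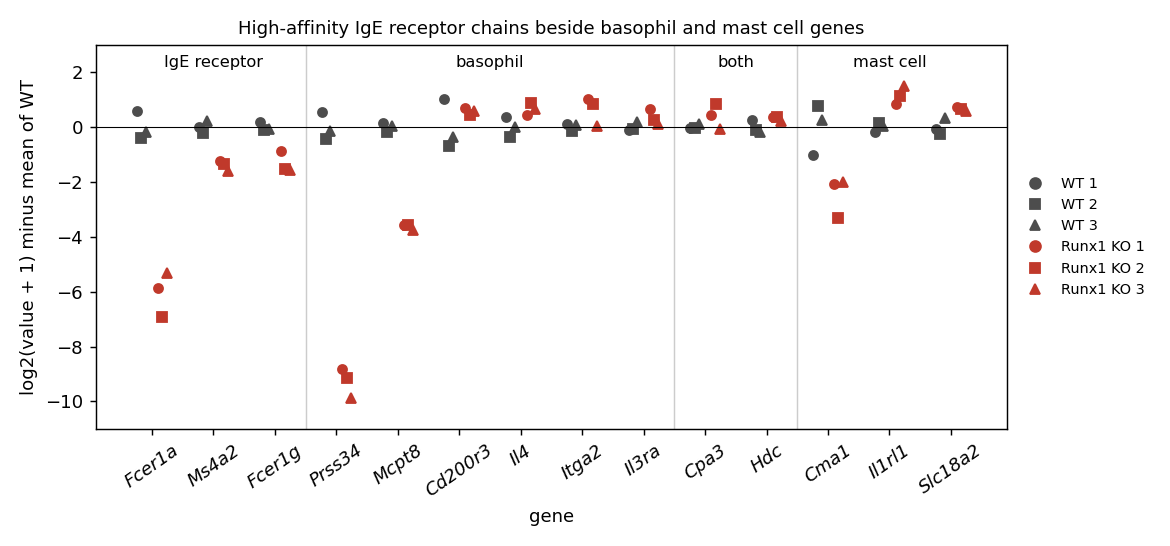
Each point is a library's log2(value + 1) minus the mean of the WT libraries, for the 3 FcεRI chains, 6 basophil markers (Ccr2, at −0.52, is not plotted), the 2 markers in both lists (Cpa3 and Hdc) and 3 mast cell markers. The libraries labelled Runx1 KO (red) lie furthest below the WT libraries (grey) for Prss34, Fcer1a and Mcpt8, by less for Cma1, Ms4a2 and Fcer1g, and near or above 0 for the other markers plotted.

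Among the IgG receptors of myeloid cells, FcγRIV alone was called by limma. Fcgr4 (ENSMUSG00000059089, chromosome 1, 171018920 to 171029761, plus strand), an activating receptor for IgG subclasses, was listed at 1400, 1858 and 2093 normalised reads in WT replicates 1 to 3 and at 940, 653 and 662 in Runx1 KO replicates 1 to 3. The groups did not overlap. In both groups replicate 1 lay nearest to the other group, as the lowest WT library and the highest of those labelled Runx1 KO. Fcgr4 was 2.37-fold lower (1784 ± 352 against 752 ± 163, mean ± SD, n = 3 each), with a log2 change of −1.25 ± 0.19 (SE, limma adjusted p = 0.00663).

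The other activating IgG receptors were not called. Fcgr3 (ENSMUSG00000059498, chromosome 1, 171051174 to 171064935, minus strand), the low-affinity receptor FcγRIII, was listed at 6906, 6007 and 5242 normalised reads in WT and at 6972, 6020 and 6005 in the libraries labelled Runx1 KO. The ranges overlapped almost fully, and the log2 change was 0.07 with a 95% interval of −0.19 to 0.33 (limma adjusted p = 0.676). Its sign turned, to −0.028, without WT replicate 3. Fcgr1 (ENSMUSG00000015947, chromosome 3, 96282909 to 96293969, minus strand), the high-affinity IgG receptor, was listed at 322, 368 and 398 normalised reads in WT and at 461, 490 and 371 in the libraries labelled Runx1 KO. Of the latter, replicates 1 and 2 lay above every WT library and replicate 3 lay within the WT range, with a log2 change of 0.28 (95% interval −0.05 to 0.60, limma adjusted p = 0.194).

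The inhibitory receptor gene Fcgr2b (ENSMUSG00000026656, chromosome 1, 170958617 to 170976547, minus strand) was listed at 4053, 3992 and 3737 normalised reads in WT and at 4938, 4342 and 4205 in the libraries labelled Runx1 KO. Every library labelled Runx1 KO lay above every WT library, by a small margin. The log2 change was 0.19 (95% interval 0.01 to 0.37), with an unadjusted p of 0.0384 and a limma adjusted p of 0.111. With libraries scaled by their total reads the log2 change was 0.27 and passed the test (limma adjusted p = 0.0328). The linear ratio of Fcgr3 to Fcgr2b was 1.70, 1.505 and 1.40 in WT and 1.41, 1.39 and 1.43 in the libraries labelled Runx1 KO (exact two-sided permutation p = 0.3, adjusted p = 0.36 over 6 ratios).

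Fcgr2b and Fcgr3 are near copies in part of their sequence. Of the 50-base stretches in the transcripts of Fcgr3, 9.58% also occur in Fcgr2b, and of those of Fcgr2b, 6.95% occur in another gene, 2.92% in Fcgr3. How reads matching both genes were counted is not given in the sources used here, so their levels are uncertain to that extent. The shares were 2.1% for Ms4a2, 1.2% for Fcer2a and 0% for the other 6 genes. Gm38204, annotated on the opposite strand across Fcgr2b, was listed at a mean of 3.94 normalised reads in WT, and Gm2962, a pseudogene on the strand of Fcrla, at a mean of 66.0 in WT and 45.5 in the libraries labelled Runx1 KO.

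The γ chain and its IgG receptor partner FcγRIII parted. The linear ratio of Fcgr3 to Fcer1g was 1.13, 1.23 and 1.04 in WT replicates 1 to 3 and 2.37, 3.31 and 3.32 in Runx1 KO replicates 1 to 3. Every library labelled Runx1 KO lay above every WT library, with a difference of 1.39 in the mean log2 ratio. The exact two-sided permutation p was 0.1, the smallest this design allows, and 0.2 after adjustment over 6 ratios.

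**Figure D3:**
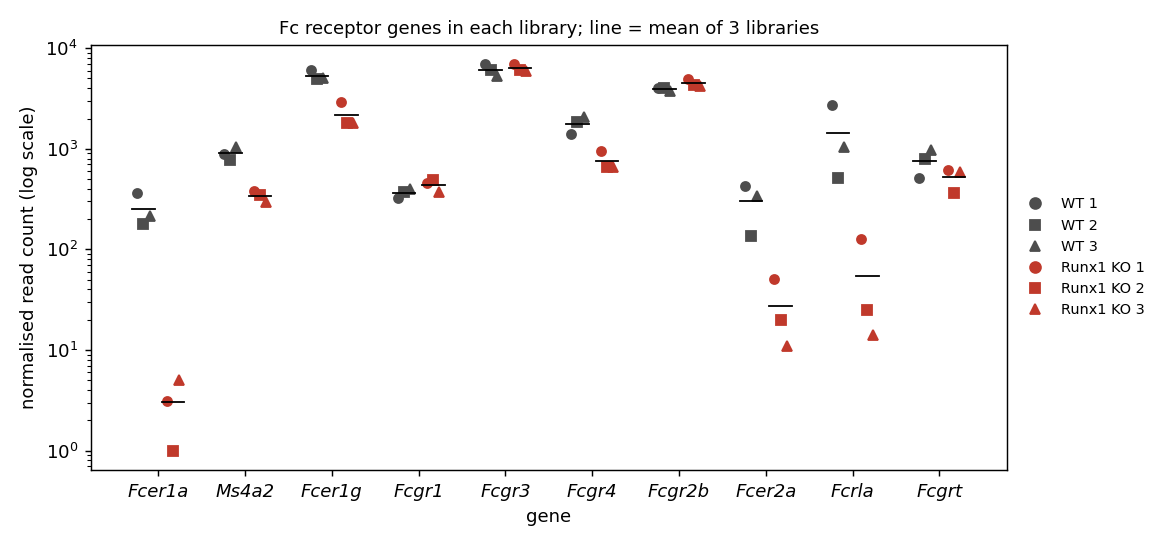
Normalised reads of the 10 Fc receptor genes are plotted on a log scale for each of the 6 libraries, with the mean of each group. The groups are apart for Fcer1a, Ms4a2, Fcer1g, Fcgr4, Fcer2a and Fcrla, lie close together without overlap for Fcgr2b, and overlap for Fcgr1, Fcgr3 and Fcgrt.

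Monocytes, macrophages and neutrophils are among the myeloid cells that carry Fcγ receptors. Of 14 monocyte and macrophage markers, 4 were lower and 1 higher, with a median log2 change of −0.38. Over all genes tested, 11.3% were called lower and 10.6% higher. The chemokine receptor gene Cx3cr1 fell by 1.61 and the surface antigen gene Ly6c2 by 1.16, while F13a1, a coagulation factor subunit, rose by 0.75 (limma adjusted p = 0.0124, 0.00358 and 0.00953). Cd68, a lysosomal protein gene, was lower as well, at −0.66, and the adhesion gene Vcam1 was not called, at 0.30. Csf1r, the receptor for macrophage colony-stimulating factor, was not called, with a log2 change of −0.34 (95% interval −0.72 to 0.04). Their summed level was 63046 to 67822 normalised reads in WT and 54751 to 67600 in the libraries labelled Runx1 KO, and without WT replicate 1 the number called lower was 7.

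Of 14 neutrophil markers, 8 were lower, against 11.3% of all genes tested, and the median log2 change of the 14 was −1.51. Among the 8 were the granule protein genes Ngp (−2.64), Ltf (−2.49) and Camp (−2.43) and the surface antigen gene Ly6g (−3.13). Of the azurophil granule genes, Elane (−0.35) and Prtn3 (−0.41) were lower, and Mpo and Ctsg were not called, at −0.14 and −0.05. The summed level was 302047 to 405515 normalised reads in WT and 160013 to 219164 in the libraries labelled Runx1 KO, without overlap, and without Runx1 KO replicate 2 the number called lower was 4. Of 8 natural killer cell markers, whose summed level was 938 to 1079 normalised reads in WT and 226 to 833 in the libraries labelled Runx1 KO, 1 was lower. That was Gzmb, a cytotoxic protease gene, with a log2 change of −4.31, a call lost without any 1 of the WT libraries or without Runx1 KO replicate 2. Klrk1 and Klrb1c, which encode receptors of these cells, were not called, at −0.87 and −1.001. The 1 of 8 lies near the 11.3% of all genes tested that were called lower, but without Runx1 KO replicate 1, 7 of the 8 were lower.

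Eosinophil, dendritic cell and megakaryocyte markers were followed in the same way, beside 11.3% of all genes tested called lower and 10.6% higher. The count of 1 lower among the 10 dendritic cell markers is near that share. Of 9 eosinophil markers, 3 were lower, Ear2 (−2.24), Ear1 (−1.49) and Epx (−1.34), and Siglecf was higher (0.48), while Prg2 and Prg3 were not called, at −0.63 and −0.33. Their summed level was 15013 to 23195 normalised reads in WT and 8247 to 12902 in the libraries labelled Runx1 KO, and without Runx1 KO replicate 2 only 1 was called lower. Of 10 dendritic cell markers, Ly6d, which B cell precursors express as well, was lower (−4.99), and Flt3 and Bst2 were not called, at 0.37 and 0.31. The summed level was 6013 to 8486 normalised reads in WT and 4597 to 6573 in the libraries labelled Runx1 KO, and without Runx1 KO replicate 1 the number called lower was 4. Of 6 megakaryocyte markers tested, 3 were higher, Gp9 (0.87), Itga2b (0.76) and Vwf (0.47), while Pf4 was not called, at −0.89. Their summed level was 3517 to 4398 normalised reads in WT and 4431 to 6776 in the libraries labelled Runx1 KO, and 1 was called higher without WT replicate 1, WT replicate 2 or Runx1 KO replicate 2. The part of these myeloid cell types in the values of the Fcγ receptors and of Fcer1g was not tested.

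The Fc receptor genes of B cells were lower as well, with the widest spread between libraries on the log2 scale among the 10 genes. Fcer2a (ENSMUSG00000005540, chromosome 8, 3681737 to 3694175, minus strand), the low-affinity IgE receptor, was listed at 424, 135 and 341 normalised reads in WT replicates 1 to 3 and at 51.3, 19.8 and 10.9 in Runx1 KO replicates 1 to 3. The lowest WT library lay above the highest of those labelled Runx1 KO, and the means were 300.4 ± 149 and 27.3 ± 21.2 (SD, n = 3 each). Fcer2a was 11.0-fold lower, with a log2 change of −3.53 ± 0.62 (SE, limma adjusted p = 0.00984).

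Fcrla (ENSMUSG00000038421, chromosome 1, 170917576 to 170927583, minus strand) was listed at 2736, 514 and 1035 normalised reads in WT and at 126, 24.8 and 13.9 in the libraries labelled Runx1 KO. Replicate 1 was the highest library of each group, and the groups did not overlap. Fcrla was 26.1-fold lower, with a log2 change of −4.96 ± 0.88 (SE, limma adjusted p = 0.0102). The size rested on single libraries: the log2 change was −5.85 without Runx1 KO replicate 1, −4.31 without Runx1 KO replicate 3 and −4.32 without WT replicate 1.

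Markers of B cells moved with both genes. Of 12, 10 were lower, against 11.3% of all genes tested, and the median log2 change of the 12 was −4.49. Among the 10 were Ms4a1 (−5.97), the kinase gene Blk (−5.41), the transcription factor gene Pax5 (−5.35) and Cd79a (−5.18), a signalling chain of the B cell receptor. The pre-B cell receptor genes Igll1 and Vpreb1 were not called, at −3.02 (limma adjusted p = 0.0598) and −2.69 (0.0776). The summed level of the 12 markers was 69340, 32586 and 41034 normalised reads in WT replicates 1 to 3 and 19414, 8297 and 8877 in Runx1 KO replicates 1 to 3. As for Fcer2a and Fcrla, replicate 1 was the highest and WT replicate 2 the lowest library of the WT group. Most of this sum was Ighm in every library, at a mean of 31437 normalised reads in WT and 10593 in the libraries labelled Runx1 KO. Its log2 change was −1.65. Without Runx1 KO replicate 2 the number called lower was 3, and without Runx1 KO replicate 3 it was 4. The part of the number of B cells in the values of Fcer2a and Fcrla was not tested.

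**Figure D4:**
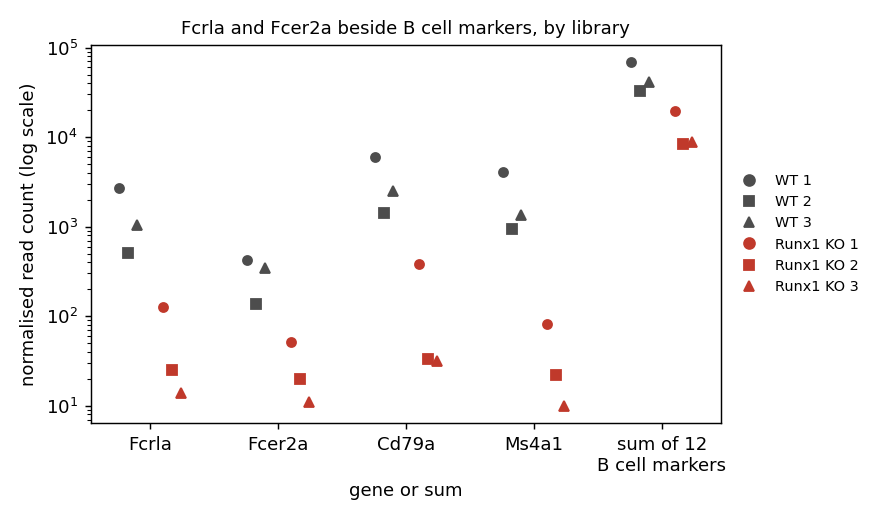
Normalised reads of Fcrla, Fcer2a, the B cell genes Cd79a and Ms4a1, and the sum of the 12 B cell markers are plotted on a log scale for each of the 6 libraries. Most of that sum is Ighm. In each of the 5 columns the WT libraries (grey) lie above those labelled Runx1 KO (red), and replicate 1 is the highest library of its group.

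The neonatal Fc receptor was not called. Fcgrt (ENSMUSG00000003420, chromosome 7, 45092990 to 45103851, minus strand) was listed at 511, 790 and 965 normalised reads in WT replicates 1 to 3 and at 613, 364 and 591 in Runx1 KO replicates 1 to 3. WT replicate 1 lay within the range of the libraries labelled Runx1 KO, and the other two WT libraries lay above it. The log2 change was −0.52 (95% interval −1.18 to 0.14, limma adjusted p = 0.220). Without WT replicate 1 and Runx1 KO replicate 1 together, an alternative chosen after seeing the data, it was −0.91 and passed the test (limma adjusted p = 0.0371). B2m, the β2-microglobulin partner of FcRn and of class I molecules, was listed at 18526, 19183 and 17100 normalised reads in WT and at 21738, 20851 and 18882 in the libraries labelled Runx1 KO, with a log2 change of 0.16 (95% interval −0.01 to 0.34, limma adjusted p = 0.161). The log2 ratio of Fcgrt to B2m differed by −0.69 (exact permutation p = 0.3, adjusted p = 0.36 over 6 ratios).

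Levels were compared between genes as normalised reads per kilobase of exon. In WT the γ chain Fcer1g was highest at 6122 ± 754 (mean ± SD, n = 3), followed by Fcgr3 at 3486 ± 480 and Fcgr4 at 1420 ± 281. These 3 did not overlap in any WT library. Next came Fcrla at 818.5 ± 666, which overlapped with both Fcgr4 and Fcgr2b (678 ± 28.9). Fcgrt at 359 ± 109, Ms4a2 at 320.3 ± 49.6 and Fcer1a at 253 ± 98.5 followed. Fcgrt overlapped with Ms4a2, and Ms4a2 with Fcer1a, but Fcer1a did not overlap with Fcgr1. Fcgr1 at 140.1 ± 14.9 and Fcer2a at 97.1 ± 48.2 overlapped with each other and were the lowest.

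In the libraries labelled Runx1 KO the order differed. Fcgr3 led at 3648 ± 319 normalised reads per kilobase, above Fcer1g at 2505 ± 742, and the 2 did not overlap. Fcgr2b at 776 ± 67.4 and Fcgr4 at 599 ± 130 came next, with overlap between them. Fcgrt at 249 ± 65.6 overlapped with Fcgr1 at 170.2 ± 23.9, and Ms4a2 followed at 121 ± 14.97. Fcrla (31.4 ± 35.3) and Fcer2a (8.84 ± 6.85) overlapped with each other, as did Fcer2a and Fcer1a (3.04 ± 2.00), the lowest gene. Fcer1a went from the eighth place in WT to the last.

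The genes that relay Fc receptor signals were counted in lists of adaptors, activating genes and inhibitors. Over all genes tested, 11.3% were called lower and 10.6% higher. Of 14 receptors and adaptors that use the γ chain or related ITAM chains, 11 were tested and 4 were lower, with a median log2 change of −0.67. Tyrobp, an ITAM adaptor like the γ chain, fell from 5934 ± 1064 to 3315 ± 775 normalised reads (log2 change −0.85, limma adjusted p = 0.0188). Trem1 (−2.21), Trem3 (−1.10) and the adaptor gene Hcst (−0.67) were the others, and without Runx1 KO replicate 2 or 3 Trem3 alone was called. Trem1 and Trem3 encode activating receptors of myeloid cells. The lectin receptor genes Clec4e and Clec4d, which signal through the γ chain, were not called, at −0.51 and −0.12.

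Of 26 genes of the activating chain below ITAM receptors, 7 were lower and 3 higher, with a median log2 change of −0.20. The 3 higher are near the share of 10.6% called higher over all genes tested. Src-family kinases, which phosphorylate ITAMs, were among those lower: Fgr by 1.92 and Lyn by 0.67 on the log2 scale (limma adjusted p = 0.0120 and 0.0139). Syk, the kinase that docks on phosphorylated ITAMs, was not called, with a log2 change of −0.42 (95% interval −0.79 to −0.05, limma adjusted p = 0.0948). Rasgrp1, a Ras activator, fell by 2.00 and Prkcb, a protein kinase C, by 1.13. Lat, a membrane adaptor of mast cells and T cells, rose from 235 ± 31.5 to 469 ± 103 normalised reads (log2 change 0.98, limma adjusted p = 0.0119). Pik3cd, a phosphoinositide kinase subunit, was not called, at 0.13. With libraries scaled by their totals 7 genes of this list were called higher.

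Of 18 inhibitors of Fc receptor signalling, 6 were lower and 1 higher, with a median log2 change of −0.46. Of all genes tested, 11.3% were called lower and 10.6% higher. Ceacam1, a receptor with an inhibitory motif, fell by 1.97 on the log2 scale (limma adjusted p = 0.00160), and Ptpn6, the phosphatase SHP-1, fell from 8677 ± 553 to 5943 ± 659 normalised reads (log2 change −0.55, limma adjusted p = 0.00830). The inhibitory receptor genes Lilrb4a (−1.90), Cd300lf (−1.86) and Siglece (−1.42) were also lower, and the calls of Lilrb4a and Cd300lf were lost without WT replicate 1, WT replicate 3, Runx1 KO replicate 2 or Runx1 KO replicate 3. Cbl, a ubiquitin ligase, was not called, at −0.14. Inpp5d, the phosphatase SHIP1 that acts below FcγRIIB, was not called, with a log2 change of −0.02 (95% interval −0.18 to 0.13). Cd200r1, an inhibitory receptor of myeloid cells, rose by 0.69 (limma adjusted p = 0.00692). The number called lower was 3 without WT replicate 1, WT replicate 3, Runx1 KO replicate 2 or Runx1 KO replicate 3.

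Other immunoglobulin-binding and Fc receptor-like genes were counted next. Of 10, 6 were tested, 4 of which were lower and 1 higher, with a median log2 change of −1.92. The shares over all genes tested were 11.3% lower and 10.6% higher. Fcmr, the IgM receptor of B cells, was listed at 1485, 446 and 645 normalised reads in WT and at 96.2, 17.8 and 12.9 in the libraries labelled Runx1 KO (log2 change −4.68, limma adjusted p = 0.00815). Fcrl5 was not called, at −1.42 (limma adjusted p = 0.0626). Fcrl1, an Fc receptor-like gene of B cells, fell by 2.29 on the log2 scale. The changes of Fcrls and of Lgals3, the IgE-binding lectin galectin-3, were −2.07 and −1.77. Fcrls had at most 9 recovered reads in any library labelled Runx1 KO and passed the filter on low values through the WT libraries only. The intracellular IgG receptor gene Trim21 rose by 0.55 (limma adjusted p = 0.0128). The call of Fcrl1 was lost without Runx1 KO replicate 2.

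Of 12 transcription factors described at FcεRI genes, 6 were higher and 2 lower, beside 10.6% higher and 11.3% lower of all genes tested. The median log2 change of the 12 was 0.42. Besides Runx1, those higher were Zfpm1 (FOG-1), a GATA cofactor, with 0.89 (limma adjusted p = 0.00381), Gata2 with 0.82 (0.0128), Tal1 with 0.72 (0.0188), Stat5b with 0.43 and Stat5a with 0.40. Gata2 was listed at 1971, 2460 and 3103 normalised reads in WT and at 4178, 4670 and 4204 in the libraries labelled Runx1 KO. The part of Gata2 and of the other factors in the values of the FcεRI chains was not tested. Spi1, which encodes PU.1, was 5985 ± 182 in WT and 4677 ± 661 in the libraries labelled Runx1 KO, a log2 change of −0.36 (limma adjusted p = 0.0403). Elf1 and Cebpa were not called, at 0.24 and −0.05. The calls of Spi1 and of Ikzf1 (−0.30) were the 2 lower calls. Neither was made by edgeR with TMM, with scaling by library totals, or without any 1 library other than Runx1 KO replicate 1, without which that of Spi1 was kept. The call of Gata2 was lost without Runx1 KO replicate 2, and that of Tal1 without that library, WT replicate 1 or WT replicate 3.

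Fcrla, Fcgr2b, Fcgr4, Fcgr3 and Fcer1g lie close together on chromosome 1. Within 250 kb of the Fcgr2b to Fcer1g interval, 36 genes were listed and 30 tested, 25 of them outside the Fc receptor set. Of these 25, 2 were lower, Ufc1 (−0.24) and Arhgap30 (−0.55), and 1 was higher, Pcp4l1 (1.23, limma adjusted p = 0.00803). The median log2 change of the 25 was −0.04, and both counts lay below the shares over all genes tested, 11.3% lower and 10.6% higher. In the same stretch, Fcrla changed by −4.96, Fcgr4 by −1.25 and Fcer1g by −1.32, while Fcgr2b and Fcgr3, which lie to either side of Fcgr4, had log2 changes of 0.19 and 0.07.

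**Figure D5:**
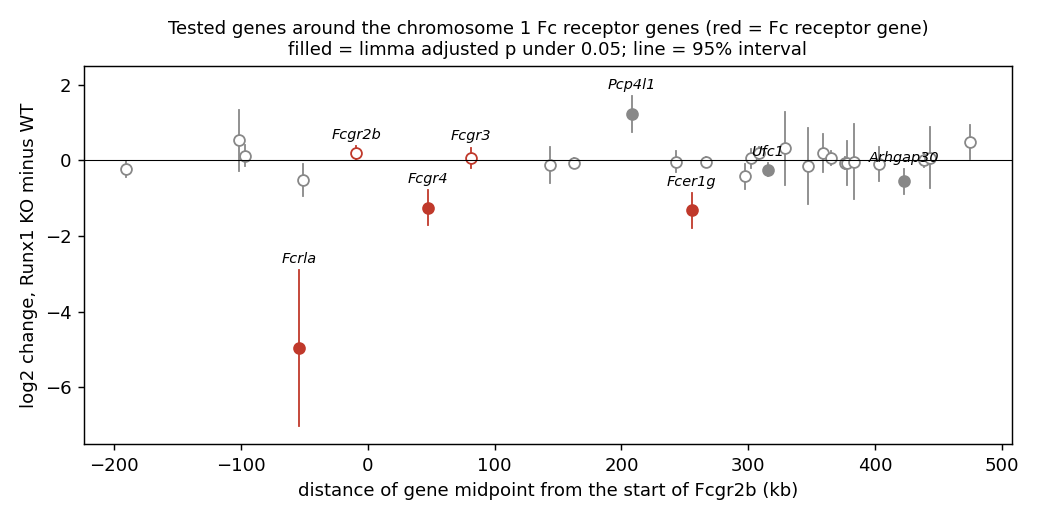
The log2 change of each tested gene on this stretch of chromosome 1, with its 95% limma interval, is plotted against the distance of the gene's midpoint from the start of Fcgr2b in kilobases. Fc receptor genes are red, other genes grey, and filled points have an adjusted p under 0.05. Fcrla, Fcgr4 and Fcer1g are the 3 lowest points, and Fcgr2b and Fcgr3 lie near 0.

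The genes whose values over the 6 libraries were most like those of each called Fc receptor gene were found by the Euclidean distance between centred log2 values, as a description with no test. For Fcer1a these were Slc36a2 (distance 1.44), Klhl14 (1.60) and Cyp11a1 (1.73). They were listed at only 0 to 4.18 normalised reads in the libraries labelled Runx1 KO, where Fcer1a was low as well. For Ms4a2 they were Derl3 (0.278), Eno3 (0.290) and Rnf217 (0.299). For Fcer1g they included Gapt (0.152) and Ctsh (0.185). For Fcgr4 they were the lectin receptor gene Clec4a1 (0.334), Atp2a1 (0.336) and Gm10182 (0.362). For Fcer2a they were Cacna1i (0.395), L1cam (0.652) and the immunoglobulin heavy chain gene Ighd (0.656). For Fcrla they were Ly6d (0.488), the immunoglobulin light chain gene Iglv3 (0.526) and Ebf1 (0.605), a transcription factor of B cells. The distance grows with the spread of a gene, so the values are not comparable between Fc receptor genes.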

How the data were processed

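Poly-A selected, strand-specific libraries were made from total RNA of c-Kit+ bone marrow cells and read on a HiSeq2500, per the labels' protocols. HISAT2, HTSeq 0.9.1 and the builds mm10 and GRCm38 are named, per the submitters' processing notes, and the strand setting, normalization and any gene filter are not given in the sources used here. The deposited values are a signal, gene reads divided by a size factor of the library. In each library 100% of values were whole multiples of 1 read (tolerance 0.001), so reads were recovered (23297526 to 26793380 per library). The exact interval of the Fcer1a fold and the floors cover counting error only. The reads carry no molecular identifiers in the sources used here. Intervals from limma measure the spread between these libraries.

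Of 20097 identifiers, 20077 matched a symbol in GENCODE M21 (GRCm38), which also gave coordinates and exon lengths. The main test was limma 3.58.1 (R 4.3.3, eBayes with trend) on log2(value + 1), two-sided, with group as the only term, over 15410 genes that passed filterByExpr (minimum count 10, minimum total 15; 4687 left out) and with Benjamini-Hochberg adjustment over all of them. A log2 change is therefore on the log2(value + 1) scale, which understates changes of low genes. On the recovered reads edgeR 4.0.16 (quasi-likelihood, TMM) called 10.5% of genes lower. DESeq2 1.42.0, other pseudocounts (0.5 and 5), filters, scalings, the replicate block and leaving out each library were further alternatives. The scripts were tested on simulated data. The 10 genes and all lists were chosen with earlier results of these data known. Genes were named by a rule: the 10 Fc receptor genes, Runx1, Gata2, Kit and B2m, from each list up to 4 genes past the threshold with the largest change and up to 2 abundant genes not past it, the 3 nearest patterns, and called neighbours on chromosome 1. Outside the rule, Trim21, Lat, Lyn, Cd200r1, Ptpn6, Spi1, Ikzf1, Stat5a, Stat5b, Il4, Cpa3, Elane, Prtn3, Ighm and the mast cell genes without a test were chosen after their values were seen. Some genes that the rule names are not reported here.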

Additional observations from a re-analysis of the deposited data

How the results depend on the processing

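The 6 Fc receptor genes called lower were lower in all 10 alternatives that kept every library and in all 6 that left 1 out. The highest adjusted p without 1 library was 0.00524 for Fcer1a, 0.0137 for Ms4a2, 0.0280 for Fcer1g, 0.0326 for Fcgr4, 0.0439 for Fcer2a and 0.0457 for Fcrla (limma). Scaling by library totals called 1 of the 10 higher, Fcgr2b, and 20 genes of the 6 lists of related genes and factors higher in place of 11. Leaving out 1 library gave 632 to 1634 genes higher and 735 to 1963 lower over all genes, against 1631 and 1739, and 14 to 28 genes of those lists lower, against 23. Without WT replicate 1 and Runx1 KO replicate 1 together, an alternative added after seeing the data, 7 of the 10, 30 genes of those lists and 2043 of all genes were lower and 1742 of all genes higher. The log2 change of Fcgr3 ranged up to 0.17 without 1 library and was −0.028 without WT replicate 3 and −0.0003 without Runx1 KO replicate 1, and that of the ratio of Ms4a2 to Fcer1g was 0.077 without WT replicate 3 and 0.076 without Runx1 KO replicate 1 (range −0.21 to 0.077). With a pseudocount of 5, the ratio of Fcer1a differed by −3.65 to Fcer1g and by −3.58 to Ms4a2. The causes of these shifts were not tested.

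Same-numbered libraries of the groups had correlations of their deviations of 0.287, 0.129 and −0.0104, so the numbers were not taken to pair them, and WT replicate 2 correlated best with Runx1 KO replicate 3 (0.235). With the replicate block, 1656 genes were higher and 2187 lower, 10 inhibitors of Fc receptor signalling were lower in limma and in edgeR against 6, and all 6 calls were kept (limma adjusted p = 0.00047 for Fcer1a). The depth limits Fcer1a in the libraries labelled Runx1 KO, where 9 reads were recovered in all.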
